A study of Mus musculus with 6 samples.

Results

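A set of 10 genes best known from the visceral endoderm and from plasma lipoproteins was followed in KH2 mouse embryonic stem cells differentiated towards definitive endoderm. They are Afp, Ttr, Apoa1, Apob, Apom, Apoe, Amn, Cubn, Rbp4 and Trf, chosen by name for their secretory and uptake functions, and all 10 were found among the 24393 listed genes. KH2 is a line built to take up a single doxycycline-inducible gene at a fixed locus, and the labels give its strain as C57/BL/6 and its cell type as embryonic stem cell. The 3 CONTROL and the 3 HOXA13 libraries came from cells grown on M15 cells, a feeder line of mesodermal origin, in a medium with Noggin, CHIR, Activin-A and a fibroblast growth factor. HOXA13 was induced from day 4 with doxycycline at 1.25 µg/ml, CXCR4+/E-cadherin+ cells were isolated by sorting on day 6, and the sorted cells were kept in doxycycline for 1 further day before RNA isolation. The HOXA13 cells carried a FLAG-tagged human HOXA13 gene, and the study selected 3 replicates of each kind, which it calls biological. Whether the CONTROL cells carried an empty construct or received doxycycline is not given in the sources used here.

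The visceral endoderm is the outer epithelium of the early mouse embryo and later lines the yolk sac. It feeds the embryo before the placenta works, both by secretion and by uptake. It secretes carrier proteins that the liver takes over later, such as alpha-fetoprotein (Afp), transthyretin (Ttr), transferrin (Trf), retinol-binding protein (Rbp4) and the apolipoproteins of lipid particles. It takes up maternal proteins through a receptor complex of cubilin (Cubn) and amnionless (Amn) that works together with megalin (Lrp2). Definitive endoderm, which forms the gut epithelium, shares many transcription factors with it but makes little of these carriers before the liver bud forms.

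The libraries held between 12279884 and 17331638 counts, and a floor of 3 counts stood at 0.176 to 0.240 CPM (CPM is the read count relative to the library total, scaled by the trimmed mean of M-values). Values of single libraries are given in the order of replicates 1, 2 and 3 throughout. The row under the human identifier ENSG00000106031, which the files do not pair with a symbol, had 0 counts in each CONTROL library and 2497, 7666 and 6572 counts in HOXA13 replicates 1, 2 and 3. CONTROL replicate 2 stood apart from the other CONTROL libraries, with a chi-square per degree of freedom of 127 against replicate 1 and 99.8 against replicate 3, compared with 27.1 between replicates 1 and 3. Pairs of HOXA13 libraries had values from 15.8 to 46.2, so no pair agreed within sampling noise. The 12 markers of definitive endoderm summed to between 321 and 2220 CPM. Eomes lay between 24.4 and 111 CPM, Epcam between 18.7 and 413 CPM, Cxcr4 between 2.25 and 11.3 CPM and Sox17 between 0.975 and 4.84 CPM, and Cer1 had 0 counts in all 6 libraries. Cdh1, which encodes the E-cadherin used in the sort, stood at 192, 1290 and 702 CPM in CONTROL, against 1730, 1690 and 1890 in HOXA13.

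The most specific visceral endoderm carriers were not detected at all. Afp, the fetal counterpart of albumin, had 0 counts in each of the 3 CONTROL and the 3 HOXA13 libraries. Ttr, the carrier of thyroid hormone and of the retinol-binding protein, also had 0 counts in each of the 6 libraries. A count of 0 allows a level of up to 0.176 to 0.240 CPM in a single library, and of up to 0.0347 CPM over the 6 libraries together. Apoa1, the main protein of high-density lipoprotein, stood at 0, 9 and 3 counts in CONTROL, against 12, 0 and 0 in HOXA13. It was above the floor in only 1 library of each group, and its reads were too few for the test. With Afp and Ttr at 0, the data go against a visceral endoderm identity of these cells, and the 10 genes are described below as a list of genes.

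The windows upstream of these genes are shown because the data place silent and active members side by side. They are 250 bases before the start given by RefSeq (build GRCm38.p6, which is not the build of the counts), on the strand of the gene. Promoter windows were examined for 8 of the 10 genes, namely Afp, Apoa1, Apob, Apom, Apoe, Amn, Cubn and Rbp4. Windows of Ttr and Trf were not examined, so the motif matches say nothing about these genes, and Afp is the only gene at 0 counts throughout that they cover. Capitals mark exact matches on either strand to letters bound by the hepatic and endodermal factors or by the basal machinery, which are GTTAAT for an HNF1 half-site, CAAAGTCCA for HNF4, TGTTTAC and TGTTTGC for FOXA, AGATAA for GATA factors, CAATAAA for posterior HOX proteins, and TATAAA for the TATA box. The 4 windows below are those of Afp (chr5:90490464-90490713, plus strand), Apoa1 (chr9:46228380-46228629, plus strand), Apob (chr12:7977427-7977676, plus strand) and the farthest upstream of 3 windows of Apoe (chr7:19699189-19699438, minus strand).
Afp promoter: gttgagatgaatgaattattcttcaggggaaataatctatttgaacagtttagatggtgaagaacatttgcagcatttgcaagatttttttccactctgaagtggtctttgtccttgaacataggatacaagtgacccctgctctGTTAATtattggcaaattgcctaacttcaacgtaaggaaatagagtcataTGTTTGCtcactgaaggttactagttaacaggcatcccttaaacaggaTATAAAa
Apoa1 promoter: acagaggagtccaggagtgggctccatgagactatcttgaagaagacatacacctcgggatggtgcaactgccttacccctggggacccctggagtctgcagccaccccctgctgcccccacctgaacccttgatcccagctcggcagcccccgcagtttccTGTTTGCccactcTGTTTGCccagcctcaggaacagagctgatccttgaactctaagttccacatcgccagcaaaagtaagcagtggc
Apob promoter: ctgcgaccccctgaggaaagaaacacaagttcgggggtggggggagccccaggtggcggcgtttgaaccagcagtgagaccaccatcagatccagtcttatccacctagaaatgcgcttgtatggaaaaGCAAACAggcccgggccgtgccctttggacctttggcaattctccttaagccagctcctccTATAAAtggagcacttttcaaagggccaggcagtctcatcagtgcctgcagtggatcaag
Apoe promoter: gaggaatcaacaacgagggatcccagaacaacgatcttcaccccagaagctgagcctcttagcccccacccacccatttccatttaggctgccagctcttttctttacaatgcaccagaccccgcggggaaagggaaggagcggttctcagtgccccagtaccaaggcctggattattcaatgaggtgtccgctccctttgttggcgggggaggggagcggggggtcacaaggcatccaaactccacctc

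TGTTTGC was present in the windows of Afp, Apoa1 and Apob, and in 4.3% of the 32851 windows of the same length in the table. In Afp it begins 55 bases before the start, and in Apoa1 it occurs at 88 and at 75 bases before the start. GTTAAT was found in Afp, 105 bases before the start, and in 6.43% of all windows. TGTTTAC was found in Rbp4 only, on the opposite strand, and in 3.17% of all windows. The printed Apoe window held none of these letters, and a further Apoe window held GTTAAT on the opposite strand. The windows of Apom, Amn and Cubn held none of them either. TATAAA, the most frequent of the motifs with 12.4% of all windows, was found in Afp, in Apob and in a further window each of Apoe and Rbp4. No window of the 8 genes held CAATAAA (4.2% of all windows), AGATAA (9.99%) or CAAAGTCCA (0.384%). These matches describe the letters of the windows and not the binding of a factor.

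**Figure D1:**
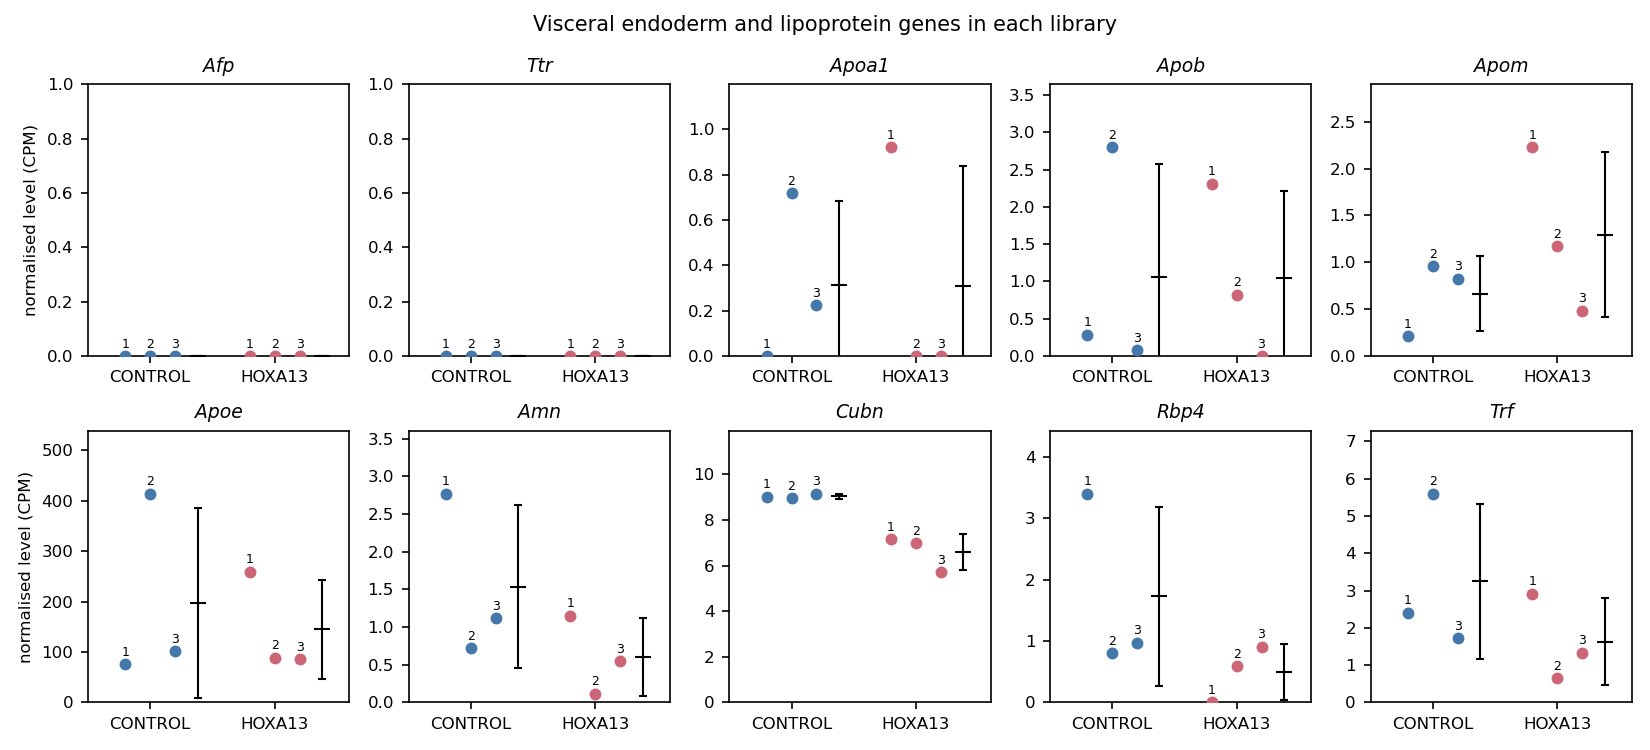
Normalised level of the 10 genes (vertical axis, CPM, starting at 0 and scaled separately for each gene) in the 3 CONTROL and 3 HOXA13 libraries, numbered by replicate, with the group mean and SD as a black bar. Afp and Ttr lie at 0 in every library, Apoe is highest in CONTROL replicate 2 and HOXA13 replicate 1, and Cubn is the only gene whose groups do not overlap.

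Among the 10 genes Apoe had the highest level. Apoe, which guides lipoprotein particles to their receptors and is made by many tissues outside the visceral endoderm, stood at 75.3, 414 and 101 CPM in CONTROL, against 259, 88.9 and 86.4 in HOXA13. CONTROL replicate 2 and HOXA13 replicate 1 were high, the other 4 libraries lay together, and the groups overlapped. CONTROL averaged 197 ± 188 CPM and HOXA13 145 ± 99.1 CPM (SD, n = 3). In edgeR the log2 fold change was -0.44 (SE 0.69, 95% interval -2.02 to 1.14, adjusted p-value 0.836). Without CONTROL replicate 2 the log2 fold change of Apoe was 0.70, so the sign of its difference rests on that library.

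Apob encodes the large structural protein of chylomicrons and very-low-density lipoprotein, and without it yolk sac endoderm cannot export lipid. It stood at 4, 35 and 1 counts in CONTROL, against 30, 14 and 0 in HOXA13. CONTROL averaged 1.05 ± 1.52 CPM and HOXA13 1.04 ± 1.17 CPM (SD, n = 3), so the spread within each group was larger than its mean. Its log2 fold change was -0.02 with a 95% interval from -3.84 to 3.80, which leaves large differences in either direction possible. Without CONTROL replicate 2 the log2 fold change of Apob was 2.45 (adjusted p-value 0.463, edgeR).

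Apom, a small apolipoprotein that carries sphingosine-1-phosphate on high-density lipoprotein, was the only tested gene of the 10 with a higher estimate in HOXA13. It stood at 0.213, 0.959 and 0.825 CPM in CONTROL, against 2.23, 1.17 and 0.485 in HOXA13. These values rest on 3 to 29 counts a library and the groups overlapped. In edgeR the log2 fold change was 0.95 (SE 1.05, 95% interval -1.48 to 3.38, adjusted p-value 0.762).

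The carriers of iron and retinol were at trace level. Trf, which delivers iron to cells, stood at 2.41, 5.60 and 1.72 CPM in CONTROL, against 2.92, 0.644 and 1.33 in HOXA13. The groups overlapped, and the log2 fold change was -0.99 (SE 0.84, 95% interval -2.93 to 0.94). The Trf row is uncertain, since 2 overlapping gene models carry this symbol in the annotation. In addition, 21.7% of the 50-base stretches of its transcripts also occur in transcripts of other genes. The study gives a longer read length for these libraries, at which this share was not computed. Rbp4 stood at 48, 10 and 13 counts in CONTROL, against 0, 10 and 15 in HOXA13. CONTROL replicate 1 was high, HOXA13 replicate 1 was at 0, and the remaining 4 libraries lay between 0.586 and 0.975 CPM. Its log2 fold change was -1.76 (SE 1.32, 95% interval -4.79 to 1.27), and its adjusted p-value was 0.625 in edgeR. Without CONTROL replicate 1 the log2 fold change of Rbp4 was -0.82.

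The uptake genes were Cubn and Amn. Cubn, the large extracellular receptor for vitamin B12-intrinsic factor, albumin and high-density lipoprotein, stood at 9.01, 8.95 and 9.15 CPM in CONTROL, against 7.15, 6.97 and 5.70 in HOXA13. Every HOXA13 library lay below every CONTROL library, and the means were 9.04 ± 0.101 and 6.61 ± 0.790 CPM (SD, n = 3). The spread of the CONTROL values was smaller than counting alone gives for about 120 reads, 0.825 CPM. The 95% Poisson interval of CONTROL replicate 2, from 7.37 to 10.8 CPM, overlapped that of HOXA13 replicate 1, from 5.77 to 8.76 CPM. Intervals of HOXA13 replicates 1 and 2 overlapped those of every CONTROL library, and that of HOXA13 replicate 3, from 4.61 to 6.97 CPM, overlapped none. For Cubn edgeR gave a log2 fold change of -0.45 (SE 0.34, 95% interval -1.23 to 0.33, adjusted p-value 0.625). Cubn was thus 1 of 7 tested genes without overlap between the groups, where 20.0% of all tested genes had no overlap and 8.52% had none with HOXA13 lower.

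Amn, the membrane-spanning partner that brings cubilin to the cell surface, was close to the floor. It stood at 39, 9 and 15 counts in CONTROL, against 15, 2 and 9 in HOXA13. CONTROL replicate 1 was the highest, HOXA13 replicate 2 the lowest, and the groups overlapped. In edgeR its log2 fold change was -1.35 (SE 1.11, 95% interval -3.92 to 1.22, adjusted p-value 0.666).

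**Figure D2:**
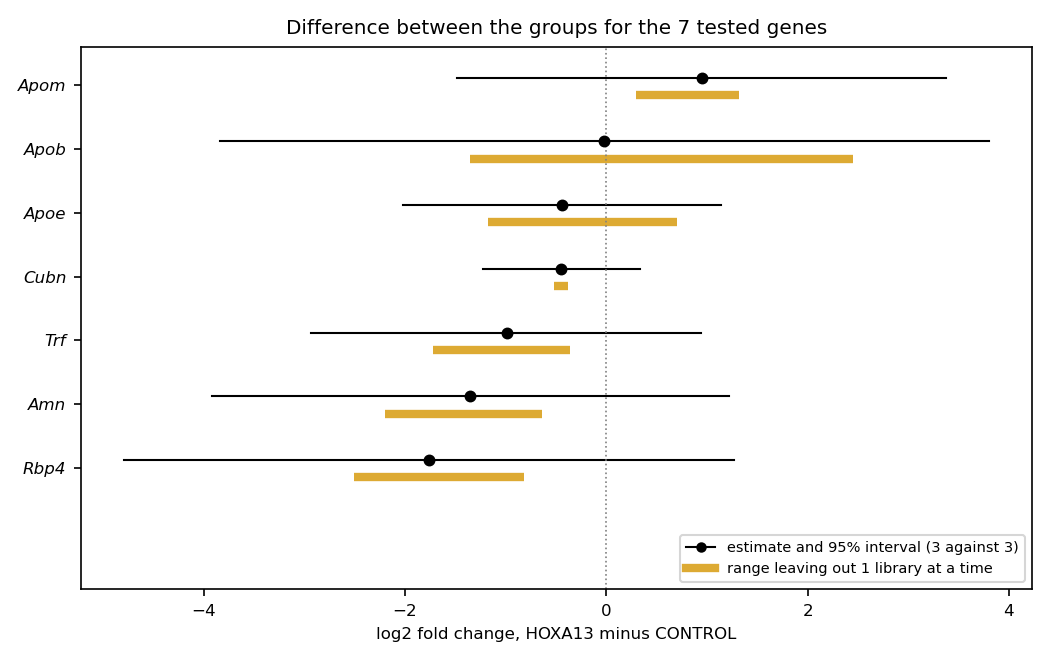
Log2 fold change of HOXA13 over CONTROL (horizontal axis) for the 7 tested genes, with the estimate and its 95% interval in black (3 libraries against 3) and the range over the 6 fits that each left out 1 library in yellow. Every interval crosses 0, and the ranges of Apob (-1.35 to 2.45) and Apoe (-1.18 to 0.70) cross 0 as well.

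Across the 10 genes, 7 passed the expression filter and 0 of these 7 passed the threshold of 0.05 in edgeR's quasi-likelihood test, where 0.309% of the 13600 tested genes did (0.265% higher and 0.0441% lower in HOXA13). None of the 7 had an unadjusted p-value under 0.05 (0 of 7, against 14.1% of all tested genes), and 0 passed in DESeq2 (background 5.07%), in limma voom (background 15.4%) and in the edgeR 4 method (background 0.779%). The estimates were lower in HOXA13 for 6 of 7 genes, where 51.2% of all tested genes were lower. The 6 include Apob (-0.02) and Apoe, whose signs both turned without CONTROL replicate 2. The median log2 fold change was -0.45, beside -0.01 over all tested genes. These 7 are the members with enough reads to be tested, and 3 of the 10 genes (Afp, Ttr and Apoa1) have no estimate. A p-value above the threshold does not show that the levels were alike, and the intervals above allow at least a 2-fold difference for each tested gene. Fewer cells of a type and less RNA per cell cannot be told apart in these bulk libraries.

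The levels of different genes were compared per kilobase of exon in GENCODE release M1, which is on mm9. Apoe (chromosome 7, 20281458 to 20284515, minus strand, 1.98 kb of exon) had a mean of 86.2 CPM per kb over the 6 libraries, above 97.1% of the 20824 listed genes with a length. Apom (chromosome 17, 35265942 to 35268995), Rbp4 (chromosome 19, 38191110 to 38199811), Trf (chromosome 9, 103106331 to 103132774), Cubn (chromosome 2, 13197965 to 13413551) and Amn (chromosome 12, 112509322 to 112514637) followed with 0.953, 0.858, 0.737, 0.662 and 0.636 CPM per kb, and neighbours in this order did not differ beyond their spread over libraries. The order was not the same in both groups, since Apom averaged 0.647 CPM per kb in CONTROL, the lowest of these 5 genes, and 1.26 CPM per kb in HOXA13, the highest of them. Apoa1 (chromosome 9, 46036663 to 46038549) had 0.252 CPM per kb. Apob (chromosome 12, 7984454 to 8023641), with 13.93 kb of exon, had 0.0751 CPM per kb, so its 84 reads in all stand for the lowest level per length among the 8 detected genes. Afp (chromosome 5, 90919740 to 90937933) and Ttr (chromosome 18, 20823751 to 20832825) were at 0.

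**Figure D3:**
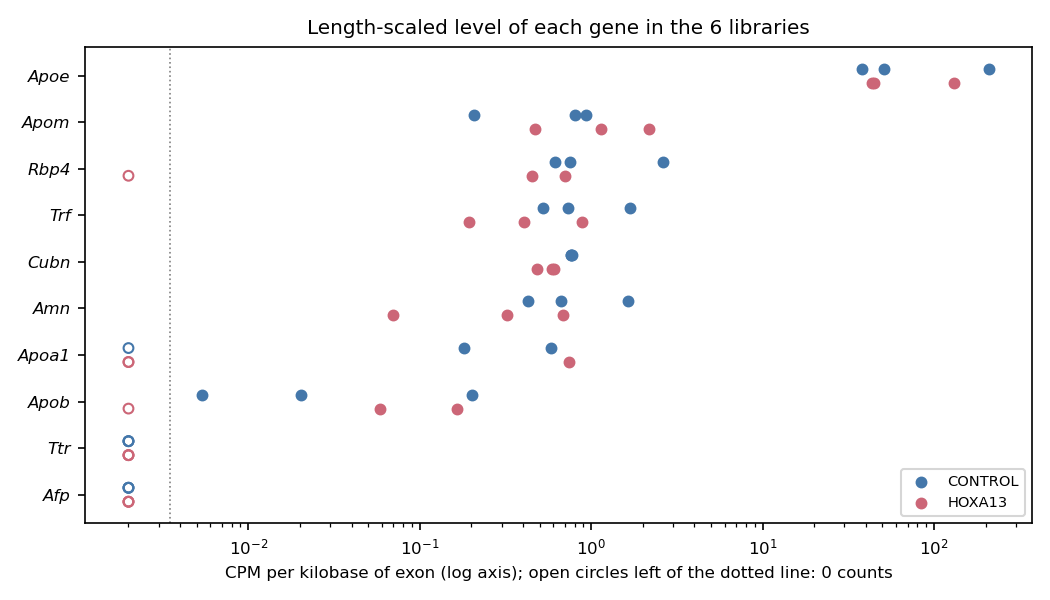
Level of each gene in each library, in CPM per kilobase of exon on a log axis, with CONTROL in blue and HOXA13 in red and with libraries of 0 counts drawn as open circles left of the dotted line. Apoe lies between 38 and 209 CPM per kb, and the other detected values reach at most 2.62 CPM per kb.

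Apoe, Apob, Apom and Trf shared the highest library within each group, though not the order of the remaining libraries. These, which are 4 of the 7 tested genes (57.1%), had their highest CONTROL value in replicate 2 and their highest HOXA13 value in replicate 1, as did 21.5% of all tested genes. Apoa1 was highest in the same libraries. For Apoe, CONTROL replicate 2 was 4.70 times the mean of the other CONTROL libraries, and HOXA13 replicate 1 was 2.96 times the mean of the other HOXA13 libraries, whereas the ratio of the group means was 0.737. For Trf these ratios were 2.71, 2.95 and 0.503. Amn and Rbp4 differed, since both were highest in CONTROL replicate 1, and Cubn was nearly level within CONTROL. This pattern was noticed after the values were seen.

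Marker genes of other cell types differed between the same libraries. The summed level of 12 pluripotency markers, all of them detected, came to 139, 1450 and 227 CPM in CONTROL, against 759, 485 and 467 in HOXA13. It was thus highest in CONTROL replicate 2 and, within HOXA13, in replicate 1, which are the libraries where Apoe, Apob and Trf were highest. Pou5f1, the defining pluripotency factor Oct4, had 310 CPM in CONTROL replicate 2 and 75.9 CPM in HOXA13 replicate 1, and between 0.851 and 15.3 CPM in the other 4 libraries. The summed level of 15 mesenchymal markers was lowest in those same libraries, at 2800 CPM in CONTROL replicate 2 and 2330 CPM in HOXA13 replicate 1, and lay between 5960 and 12100 CPM elsewhere. Macrophages are another strong source of Apoe, and the summed level of 8 macrophage markers was 74.0 to 141 CPM in CONTROL and 41.7 to 94.4 CPM in HOXA13, with the maximum in CONTROL replicate 3. Cd68 lay between 33.1 and 45.5 CPM and Csf1r between 2.18 and 9.84 CPM, Lyz2 reached 83.9 CPM in CONTROL replicate 3 and was at 0 in HOXA13 replicate 1, and Ptprc was at 0 counts in 4 of the 6 libraries. Mesenchymal cells and macrophages usually lack E-cadherin, for which the cells were sorted. Transcripts of their markers were nevertheless present in the sorted and further cultured cells. Vim, 1 of the mesenchymal markers, stood at 4350, 548 and 3580 CPM in CONTROL, against 155, 722 and 481 in HOXA13. The part of these cell types in the levels of Apoe, Apob and Trf was not tested.

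**Figure D4:**
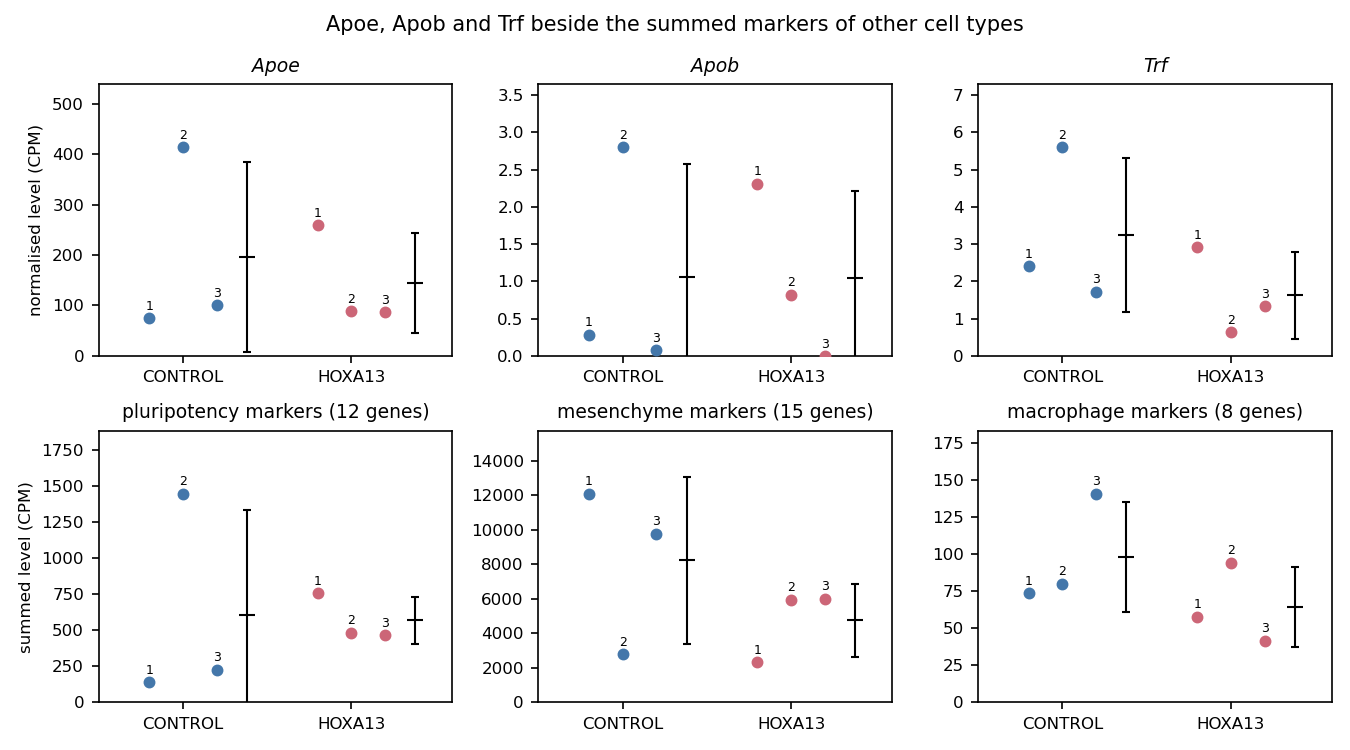
Levels of Apoe, Apob and Trf (upper row, CPM) above the summed levels of pluripotency, mesenchyme and macrophage markers (lower row, summed CPM), each axis starting at 0, with numbered replicates and the group mean and SD as a black bar. Apoe and the pluripotency sum are both highest in CONTROL replicate 2 (414 and 1450 CPM), where the mesenchyme sum is 2800 CPM.

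The genes whose pattern over the 6 libraries was most like that of Apoe were found by the root mean square difference of centred log2 CPM among 10723 genes. They were Sp5, Syt9, Fkbp5, Ifitm1 and Lin28a, at 0.11, 0.16, 0.21, 0.25 and 0.25 on the log2 scale. Lin28a, an RNA-binding protein of pluripotent and early embryonic cells, stood at 38.3, 164 and 48.6 CPM in CONTROL, against 88.5, 48.0 and 47.5 in HOXA13. The nearest genes to Cubn were Pde7a, Mrpl32, Cirh1a, Prkcsh and Ckap5, at 0.05 to 0.06 on the same scale. Among so many genes some lie close to any profile over 6 libraries.

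The transcription factors of the visceral endoderm were low or overlapped between the groups. Hnf4a, which drives the carrier and apolipoprotein genes in visceral endoderm and liver, was found with 0, 6 and 1 counts in CONTROL and with 0 counts in each HOXA13 library, and did not pass the filter. Foxa3 did not pass it either. Of the 10 regulators 8 were tested and 0 passed the threshold (0 at an unadjusted p-value under 0.05, edgeR), with 3 estimates higher and 5 lower in HOXA13 and a median log2 fold change of -0.07. Gata6, an early endoderm factor, stood at 34.9, 10.1 and 35.8 CPM in CONTROL, against 5.69, 19.0 and 12.4 in HOXA13, the lowest estimate among regulators of at least 5 CPM, with a log2 fold change of -1.12 (adjusted p-value 0.434, edgeR). Hhex, a factor of anterior endoderm, had the highest by the same criterion, at -0.18.

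Among the endocytic partners of cubilin, Lrp2 and Lrpap1 had lower values in every HOXA13 library than in any CONTROL library, 2 of the 12 genes in the uptake list, where 8.52% of all tested genes did. Lrp2 encodes megalin, the scavenger receptor that internalises the cubilin complex, and it stood at 205, 113 and 285 CPM in CONTROL, against 97.8, 103 and 84.9 in HOXA13. The log2 fold change of Lrp2 was -1.08 (SE 0.31, 95% interval -1.78 to -0.37), with an unadjusted p-value of 0.00806 and an adjusted p-value of 0.175 in edgeR. Lrp2 passed the threshold in DESeq2 (adjusted p-value 0.0183), in limma voom (adjusted p-value 0.00345) and in edgeR without CONTROL replicate 2 (adjusted p-value 0.00274), and it did not with the replicate number as a block (adjusted p-value 0.403). Over all alternatives its adjusted p-value ran from 0.00274 to 0.576, and the log2 fold change from -1.38 to -0.76. DESeq2, limma voom and edgeR without CONTROL replicate 2 called 722, 2101 and 2006 genes, against 42 in the main fit.

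Lrpap1, the chaperone of this receptor family, stood at 64.5, 106 and 62.7 CPM in CONTROL, against 58.4, 46.1 and 42.9 in HOXA13, also without overlap, with a log2 fold change of -0.66 (adjusted p-value 0.297, edgeR). Dab2, the adaptor that links megalin to clathrin, stood at 106, 4.72 and 54.3 CPM in CONTROL, against 7.84, 30.3 and 31.0 in HOXA13. It was lowest in CONTROL replicate 2 and HOXA13 replicate 1, where the mesenchymal sum was lowest too. Its log2 fold change was -1.25 (adjusted p-value 0.614, edgeR). Without CONTROL replicate 2 the log2 fold change was -1.81 (adjusted p-value 0.0454), and without CONTROL replicate 1 it was -0.37 (adjusted p-value 0.973). With the replicate number as a block it was -0.71 (adjusted p-value 0.898). Lrp1, a related receptor of lipoprotein remnants, had the lowest estimate of the list among genes of at least 5 CPM, at -1.34. Its adjusted p-value was 0.424 in edgeR, 0.0425 without CONTROL replicate 2 and 0.0352 in limma voom, where the last 2 settings called 2006 and 2101 genes. It was 0.488 in DESeq2 and 0.669 with the replicate number as a block. Leaving out 1 library each gave log2 fold changes from -2.12 (without HOXA13 replicate 2) to -0.97 (without HOXA13 replicate 1). The part of mesenchymal cells in the levels of Dab2 and Lrp1 was not tested.

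Vldlr, which binds particles carrying Apoe, stood at 14.4, 16.8 and 7.57 CPM in CONTROL, against 16.8, 20.6 and 32.3 in HOXA13. Its log2 fold change was 0.85 (adjusted p-value 0.377, edgeR), the highest of the list among genes of at least 5 CPM, and the groups overlapped. It passed in limma voom, at 1.35 (adjusted p-value 0.037), as did 15.4% of all tested genes. Tfrc, the receptor of transferrin, had between 238 and 366 CPM in CONTROL and between 315 and 360 CPM in HOXA13. Of the 12 uptake receptors and adaptors, all were tested and 0 passed the threshold (3 at an unadjusted p-value under 0.05, Lrp2 and Lrpap1 among them), with 6 estimates higher and 6 lower and a median of 0.02.

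**Figure D5:**
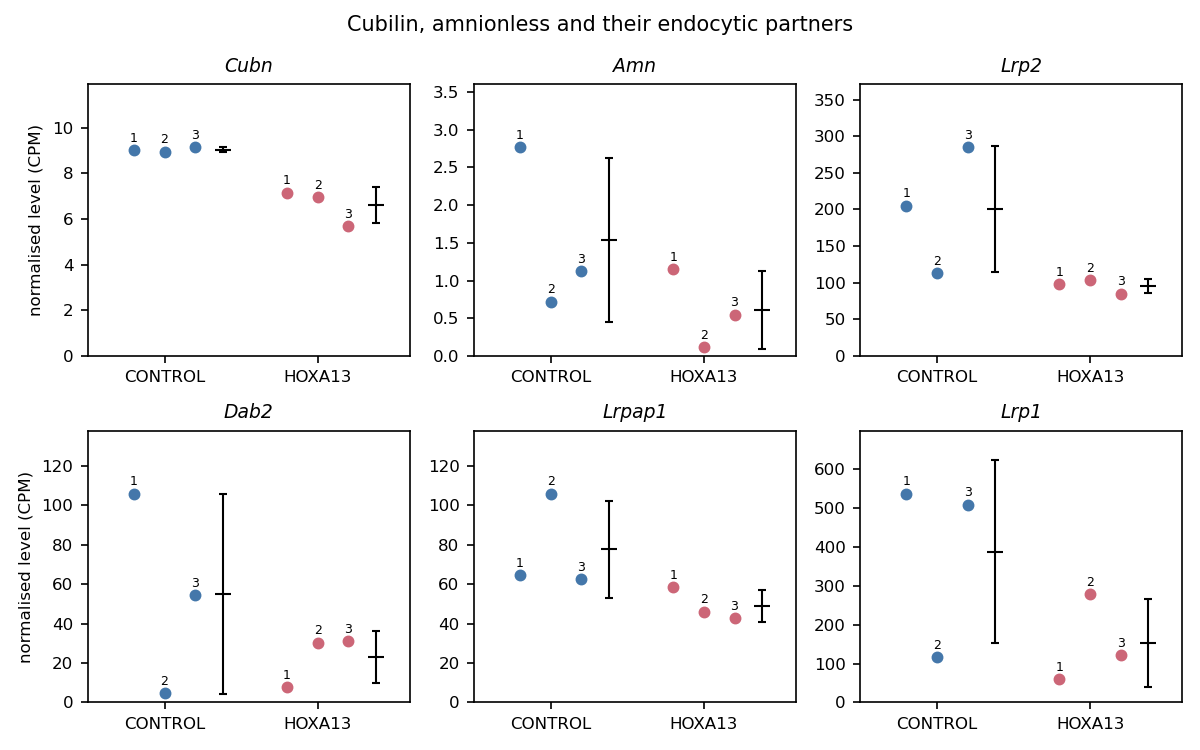
Normalised level (vertical axis, CPM, starting at 0 and scaled separately) of Cubn and Amn and of their partners Lrp2, Dab2, Lrpap1 and Lrp1 in the 6 numbered libraries, with the group mean and SD as a black bar. The groups do not overlap for Cubn, Lrp2 and Lrpap1, and Dab2 is lowest in CONTROL replicate 2 (4.72 CPM) and HOXA13 replicate 1 (7.84 CPM).

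Of the other apolipoproteins only some were detected. Apoa4, Apoa5, Apoc2, Apoc3 and Apoc4, which travel on triglyceride-rich particles, had 0 counts in all 6 libraries, 5 of 10 genes in this list. Of the 4 tested, 0 passed the threshold (0 at an unadjusted p-value under 0.05, edgeR). Apoc1, which lies beside Apoe, stood at 0, 1.76 and 2.32 CPM in CONTROL, against 6.07, 3.40 and 2.79 in HOXA13, without overlap, with a log2 fold change of 1.58 (SE 1.19, adjusted p-value 0.629). Clu, an apolipoprotein and extracellular chaperone that many epithelia make, stood at 35.8, 156 and 34.2 CPM in CONTROL, against 182, 159 and 156 in HOXA13. CONTROL replicate 2 lay at the level of the HOXA13 libraries. The log2 fold change of Clu was 1.14 (adjusted p-value 0.414, edgeR). It was 2.22 without CONTROL replicate 2 (adjusted p-value 0.000349) and 2.02 in limma voom (adjusted p-value 0.0019), 2 settings that called 2006 and 2101 genes. Without those changes the main fit called 42 genes. The log2 fold change of Clu was 0.78 without CONTROL replicate 1 and 0.77 without CONTROL replicate 3 (adjusted p-values 0.766 and 0.738). Clu did not pass in DESeq2 (adjusted p-value 0.207) or with the replicate number as a block (adjusted p-value 0.393).

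Of 13 genes for building and remodelling lipoproteins, Lipc had 0 counts in all 6 libraries. Mttp, which loads lipid onto the Apob protein, stood at 9.57, 6.16 and 16.1 CPM in CONTROL, against 13.8, 12 and 8.67 in HOXA13, with a log2 fold change of 0.11 (95% interval -0.85 to 1.07). Pltp, a phospholipid transfer protein, had the lowest estimate among genes of at least 5 CPM, at -0.91 (adjusted p-value 0.362, edgeR). It passed in limma voom (-1.27, adjusted p-value 0.00918), as did 15.4% of all tested genes. Soat1, which esterifies cholesterol, had the highest, at 0.42 (SE 0.16, adjusted p-value 0.289), and its groups did not overlap. P4hb, Sar1b and Apobec1 had no overlap with HOXA13 lower, so that 1 of 12 tested genes was higher and 3 of 12 lower without overlap, where 11.5% and 8.52% of all tested genes were. Of the list 12 genes were tested and 0 passed the threshold (1 at an unadjusted p-value under 0.05, Soat1), with 2 estimates higher and 10 lower and a median of -0.31.

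Most other plasma proteins of the yolk sac and liver had few reads or none. Of 15 listed genes 3 were tested, 4 had 0 counts in every library (Fga among them), and 0 passed the threshold (0 at an unadjusted p-value under 0.05, edgeR). Sepp1, a selenium carrier, was detected in all 6 libraries at 1.88 to 8.85 CPM, as was Hpx, which binds heme, at 1.88 to 5.85 CPM. Serpinc1, which encodes antithrombin, was higher in HOXA13 without overlap, at 0.999 to 1.82 CPM against 0 to 0.355 CPM, with a log2 fold change of 2.71 (adjusted p-value 0.388, edgeR). Alb, the albumin gene next to Afp, had 5 counts in CONTROL replicate 1, 6 in HOXA13 replicate 3 and 0 in the other libraries. Among 7 listed further visceral endoderm markers, Spink1 and S100g had 0 counts throughout, 4 were tested and 0 passed (0 at an unadjusted p-value under 0.05). Emb and Bmp2, which are not restricted to this tissue, had the highest and lowest estimates among genes of at least 5 CPM, at 0.48 and -0.45, and Ihh, below that level, had 1.01.

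The neighbouring endoderm types were examined in the same way, and the counts at an unadjusted p-value under 0.05 stand beside 14.1% of all tested genes. Among 6 genes of the anterior visceral endoderm Cer1 had 0 counts and 0 of 5 passed the threshold in edgeR (2 at an unadjusted p-value under 0.05), with Lefty1 at a log2 fold change of 2.58 and Dkk1 at -2.96 (adjusted p-values 0.367 and 0.239). Among 11 genes of parietal endoderm, the basement-membrane-producing type, 0 of 11 passed (5 at an unadjusted p-value under 0.05), with a median of -0.96, and many of these genes are also made by mesenchyme. Fst was lowest there, from 33.2, 57.3 and 65.2 CPM in CONTROL to 14.1, 17.2 and 8.37 CPM in HOXA13 (log2 fold change -1.97, adjusted p-value 0.0754, edgeR). In the remaining lists 0 genes passed in edgeR, with 2 of 10 tested definitive endoderm, 0 of 12 pluripotency, 4 of 14 mesenchyme, 0 of 4 mesonephric feeder, 0 of 6 macrophage, 3 of 6 neural and 1 of 5 intestinal genes at an unadjusted p-value under 0.05 (14.1% of all tested genes). Among genes of at least 5 CPM, the highest and lowest log2 fold changes were 1.28 for Cdh1 and -1.32 for Eomes in definitive endoderm, 0.64 for Klf4 and -3.34 for Tdgf1 in pluripotency, and 0.35 for Fn1 and -4.47 for Acta2 in mesenchyme. They were 0.33 for Csf1r and -1.76 for Lyz2 in macrophages, 2.34 for Krt20 and 0.21 for Cdx1 in the intestine, and 0.45 for Lamc1 beside Fst in parietal endoderm. In the neural list the highest was -0.83, for Tubb3. Fabp2, a lipid carrier of enterocytes that accompanies Apoa1 and Apob in the intestine, had 0 counts in all 6 libraries.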

How the data were processed

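Each sample came with a deposited list of genes and their raw read counts, which the authors made from stranded poly-A libraries aligned to mm9 with TopHat2 and counted with HTSeq (releases 2.0.14 and 0.6.1p1 in the submitters' notes, and the study's methods name another TopHat release). The annotation and strand option are not given in the sources used here. Totals were 12279884 to 17331638 counts a library, and intervals and floors (3 counts) cover counting error only. Groups and replicate numbers were taken from the sample titles.

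Counts were fitted in R 4.3.3 with edgeR 4.0.16 over all 6 libraries with the group as the only term, after filterByExpr (minimum count 10, minimum total 15, 13600 genes) and TMM scaling. The quasi-likelihood F test was used with Benjamini-Hochberg adjustment over all tested genes and a threshold of 0.05. Standard errors came from the F statistic, and 95% intervals from its degrees of freedom. Adjusted p-values in the text are from this fit unless another tool is named. Alternatives were DESeq2 1.42.0, limma 3.58.1 voom with sample quality weights, the edgeR 4 method, RLE and upper quartile scaling, other filters, a replicate block and leaving out each library. The code was tested on simulated data.

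The 10 genes and the marker lists were chosen with earlier results of these data known. Named from the lists were the genes with the highest and lowest log2 fold change at a mean of at least 5 CPM and any past the threshold. Others were named for their known role after their values were seen. Some genes of the lists are not reported here by name. The search for genes most like Afp could not be run, since Afp is at 0, and Apoe and Cubn were taken instead after seeing the data (log2 of CPM plus 1). Lengths and mm9 positions are those of GENCODE M1.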

Additional observations from a re-analysis of the deposited data

How the results depend on the processing

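The number of the 10 genes past the threshold was 0 in each direction in all 14 alternatives, with 0 at an unadjusted p-value under 0.05 in each, and only Apoe and Cubn were still tested when genes needed a mean of 50 counts. Of 93 values of the 7 tested genes under these alternatives, 89 kept their direction and 4 did not. The log2 fold change of Apob was 2.45 without CONTROL replicate 2, 0.10 without HOXA13 replicate 2 and 0.54 without HOXA13 replicate 3. That of Apoe was 0.70 without CONTROL replicate 2. Leaving out 1 library each gave -1.35 to 2.45 for Apob and -1.18 to 0.70 for Apoe. Cubn ranged from -0.53 to -0.38, Amn from -2.20 to -0.64, Rbp4 from -2.51 to -0.82, Trf from -1.72 to -0.36 and Apom from 0.30 to 1.32, and the lowest adjusted p-value of any of the 7 genes was 0.233, for Amn in limma voom.

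Over all genes the number called was 42, and it was 722 with DESeq2, 2101 with limma voom, 106 with the edgeR 4 method, 163 with no filter beyond 1 count, 9 where a mean of 50 counts was required, and 0 to 2006 without 1 library, the highest without CONTROL replicate 2. The cause was not tested. With the replicate number as a block it was 0 (1392 at an unadjusted p-value under 0.05), and the log2 fold changes of the 7 genes were then -0.21 for Apob, 0.84 for Apom, -0.22 for Apoe, -1.55 for Amn, -0.46 for Cubn, -1.70 for Rbp4 and -0.99 for Trf. Same-numbered libraries had correlations of deviations from the group means of -0.257, -0.322 and 0.136, beside -0.281 to 0.353 for libraries of different number. With 3 libraries a group, 1 outlying library weighs heavily on these values, so they cannot show whether the numbers pair the samples. Counts were few for Apoa1, Apom, Apob, Amn and Rbp4, with 24, 83, 84, 89 and 96 in all. Apoe, with 13894 counts, still had an SE of 0.69. The part of depth in the width of the intervals was not tested.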
